A study of Homo sapiens with 12 samples.

Results

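The 10 genes described here encode the cohesin ring and the proteins that load it on chromosomes and take it off again. They were chosen by symbol alone: SMC1A, SMC3, RAD21, STAG1, STAG2, NIPBL, MAU2, WAPL, PDS5A and PDS5B, which are 10 of the 28278 gene symbols in the count table. Cohesin is a ring of the long coiled-coil proteins SMC1A and SMC3, closed by the kleisin RAD21, and it carries either STAG1 or STAG2 as a further subunit. NIPBL with its partner MAU2 loads the ring and drives its ATPase, while WAPL together with PDS5A or PDS5B opens it and lets it go. The ring holds sister chromatids together from replication to mitosis and folds interphase chromatin into loops, and STAG2 is among the cohesin genes most often mutated in human tumors.

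The transcriptomes came from a screen in which cancer cells were passaged in 96-well plates, either with repeated pulses of hydroxychloroquine (HCQ), a lysosomotropic antimalarial drug that disrupts autophagy, or without drug. HCQ-evolved cells of the lines labelled OVCAR3 (ovarian cancer) and CCL218 (colorectal cancer) had gone through 15 pulse-chases with 48 h of HCQ in each, and were labelled passage 15. Control cells of each line had been carried without HCQ and were labelled passage 19, so treatment and passage number cannot be told apart. All cells, controls included, were harvested after 7 drug-free days, and wells were pooled by plate position into L, M and R. This gave 3 pools in each of 4 groups, 12 libraries of polyA-selected RNA. Each pool mixes many separately passaged wells, all seeded from the same parental culture, so p-values measure the spread between pools of a plate. In bulk RNA, fewer cells with a transcript and less of it per cell cannot be told apart. Exomes were read from the same pools but were not analysed here, and counts per gene do not separate alleles.

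Library totals ran from 31147822 to 59965861 counts, and all 10 genes passed the filter of 1 CPM (counts scaled to the library total alone) in 3 libraries in each line. Levels given below are CPM scaled by TMM as well. Markers separated the lines in part. Of 7 ovarian markers, SOX17 had 0 counts in every library, ESR1 and EMX2 reached at most 0.0493 CPM and WT1 at most 2.38 CPM, also in the OVCAR3 libraries. The other 3 of the 7 (PAX8, MUC16 and MECOM) were above 1 CPM in every library, and the summed level was 56.2 to 92.9 CPM in OVCAR3 and 59.3 to 90.6 CPM in CCL218. MUC16 was at 13 to 50.6 CPM in OVCAR3 and 3.67 to 14 CPM in CCL218. MECOM went the other way, at 24.6 to 52.3 CPM in OVCAR3 and 40.1 to 75.7 CPM in CCL218. PAX8 was alike, at 7.33 to 14.2 CPM in OVCAR3 and 6.42 to 11 CPM in CCL218. Of 8 colorectal markers, the summed level was 971 to 1135 CPM in control and 238 to 705 CPM in HCQ-evolved OVCAR3, below all CCL218 pools (1221 to 1638 CPM), and CDX2 was also apart, at 0.812 to 13.1 CPM in OVCAR3 and 21.3 to 72.2 CPM in CCL218. CDH17 was at most 4.89 CPM and GPA33 at most 7.28 CPM in OVCAR3 and control CCL218, and they were at 45.2 to 58.1 and 32.4 to 36.9 CPM in HCQ-evolved CCL218. LGALS4 (135 to 822 CPM) and VIL1 (79.4 to 288 CPM) were abundant in the OVCAR3 libraries too, and KRT20 and CDX1 were under 1 CPM throughout. HNF4A was at 20 to 89.8 CPM in OVCAR3 and 87.1 to 150 CPM in CCL218. A search for genes that reached 5 CPM in each pool under 1 label and stayed at or below 1 CPM in each pool under the second label found 0 in either direction. Whether the libraries come from distinct lines was not tested, and line names below are the labels. Of 6 fibroblast markers the summed level was at most 3.28 CPM, and of 5 leukocyte markers only LYZ was above 1 CPM, with a summed level of 1308 to 2764 CPM in all groups.

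Levels among the 10 genes can be compared only per length, so CPM was divided by the length of the canonical transcript. RAD21, the subunit that separase cuts at anaphase, stood far above the rest, with 280 ± 34.7 CPM per kb in control OVCAR3 and 315 ± 50.5 CPM per kb in control CCL218 (mean ± SD, n = 3 pools). STAG2 came next, at 27.5 ± 5.08 and 33.4 ± 8.32 CPM per kb. The loader pair NIPBL (7.48 ± 2.02 and 9.82 ± 2.31 CPM per kb) and MAU2 (6.86 ± 1.95 and 8.02 ± 2.01 CPM per kb) closed the order in both controls and also after evolution. From STAG2 downwards each gene overlapped the next in the order in the OVCAR3 groups and in control CCL218. In HCQ-evolved CCL218 the pools of STAG2 lay above those of PDS5A, those of WAPL above PDS5B, and those of PDS5B above STAG1.

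**Figure D1:**
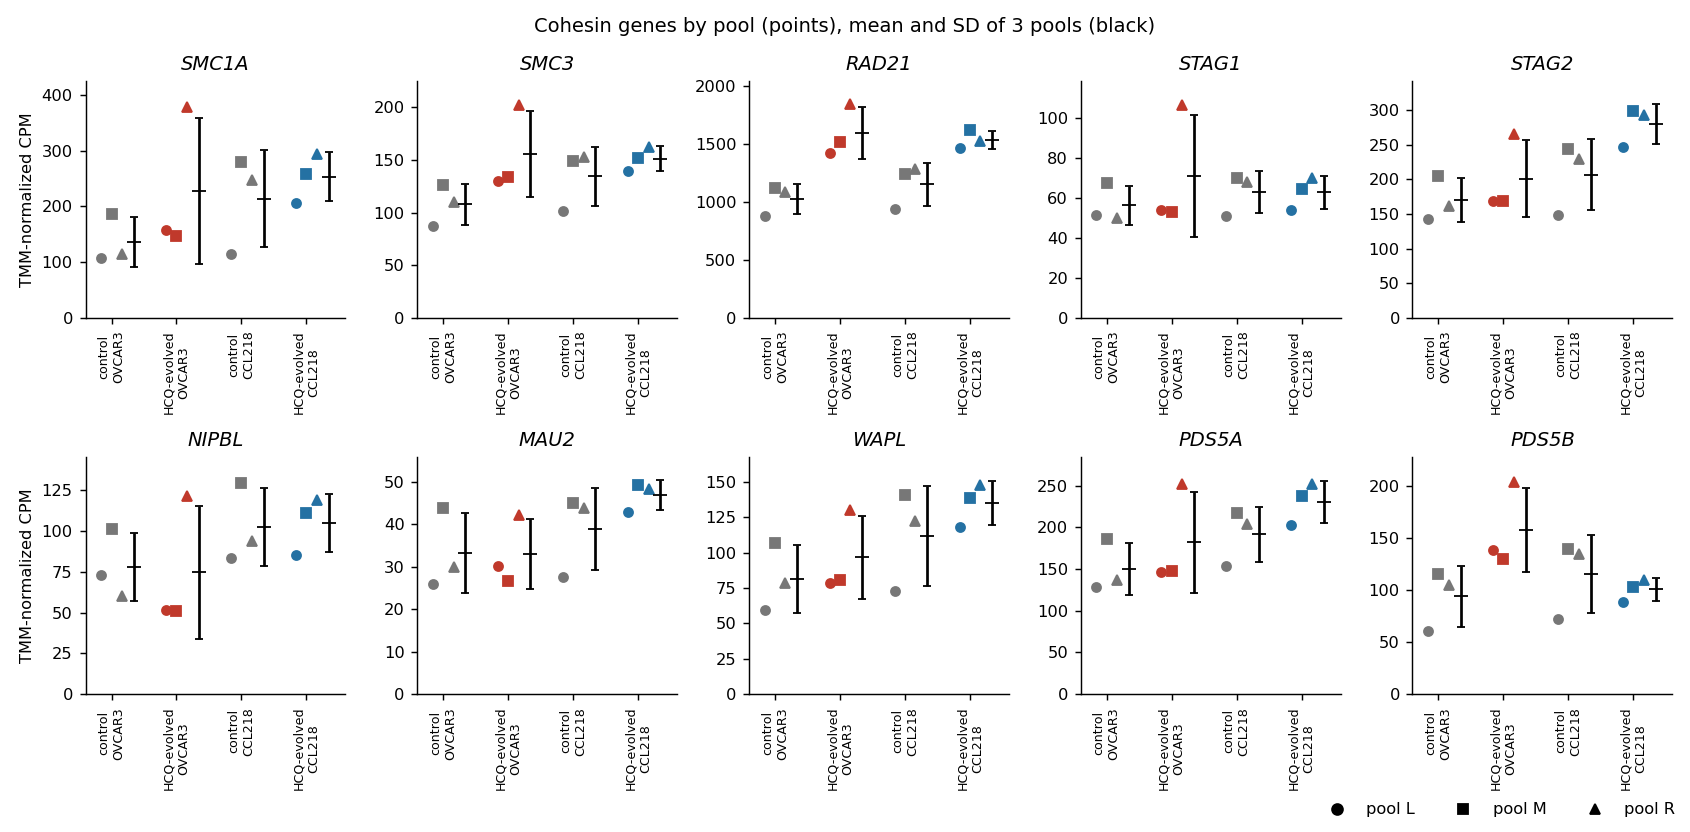
TMM-normalized CPM of each cohesin gene (vertical axis, from 0) in the 4 groups, with a symbol for each pool and the mean and SD of 3 pools in black. HCQ-evolved pool R of OVCAR3 was the highest of its line for 9 of 10 genes, and control pool L of CCL218 was the lowest of its line for all 10.

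None of the 10 genes was differentially expressed in either line. In edgeR's quasi-likelihood test 0 of 10 passed a Benjamini-Hochberg adjusted p of 0.05 in OVCAR3, where 1.86% of 12204 genes did, and 0 of 10 passed in CCL218, where 6.46% of 12241 genes did (791 genes, and 1744 with plate position as a block, also with 0 of the 10). At an unadjusted p under 0.05 there were 2 of 10 in OVCAR3 (RAD21 and PDS5B, against 16.2% of all genes) and 1 of 10 in CCL218 (RAD21, against 25.2%), shares near those of all genes. Log2 fold changes were above 0 for 8 of 10 genes in OVCAR3 (51.6% of all genes) and for 8 of 10 in CCL218 (48.3%). The median over the 10 genes was 0.29 in OVCAR3 and 0.23 in CCL218, beside 0.02 and -0.02 over all genes tested. Every evolved pool lay above every control pool for 3 of 10 genes in OVCAR3 (RAD21, SMC3 and PDS5B, against 14.5% of all genes) and for 2 of 10 in CCL218 (RAD21 and STAG2, against 19.8%).

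Single pools and transcript length moved with these medians. The cohesin transcripts ran from 3.66 to 10.42 kb, against a median of 2.28 kb over all symbols matched to the annotation, tested or not. Pools differed along length, with Spearman's rho of a pool's deviation with length across all genes from -0.51 in control CCL218 L to 0.56 in HCQ-evolved OVCAR3 R. The mean deviation of the 10 genes from their line's mean was lowest in the former (-0.55 log2 CPM) and highest in the latter (0.69). Of all genes with transcripts of 6 to 8 kb the median log2 fold change was 0.11 in OVCAR3 and 0.11 in CCL218, and of those under 2 kb it was -0.08 and -0.20. With the trend with length and GC content removed from each library, the median of the 10 genes was 0.12 in OVCAR3 and 0.08 in CCL218, 8 and 6 of 10 were above 0, and 0 of 10 passed in either line, where 8.53% and 19.8% of all genes did. Without HCQ-evolved pool R the OVCAR3 median was -0.05 and 4 of 10 genes were above 0. Without control pool L the CCL218 median was 6.34e-05 and 5 of 10 were above 0.

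**Figure D2:**
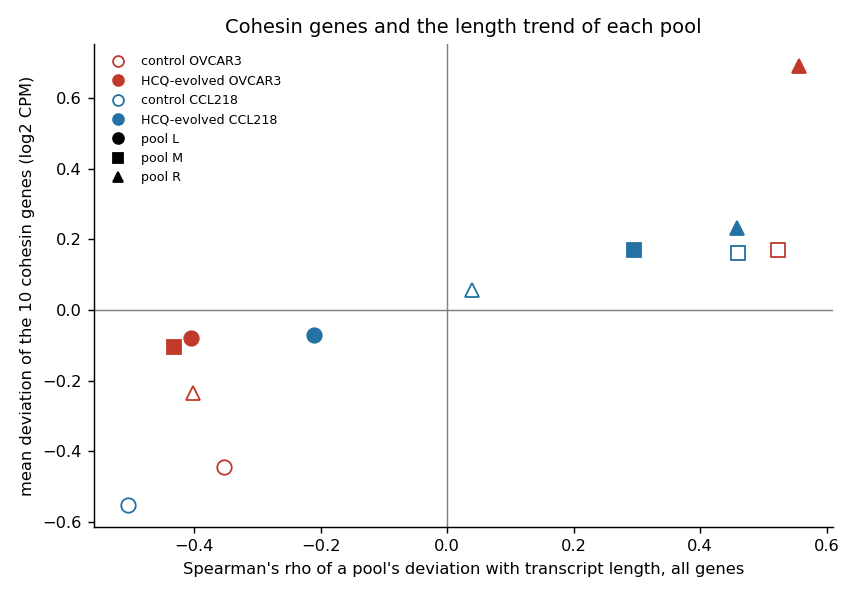
Mean deviation of the 10 cohesin genes from the mean of their line (vertical axis, log2 CPM) against Spearman's rho of the pool's deviation with transcript length over all genes (horizontal axis), 1 point per library. The 6 libraries with rho below 0 have a mean cohesin deviation below 0, from -0.55 to -0.07, and the 6 with rho above 0 have one above 0, from 0.06 to 0.69.

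Among the ring subunits, RAD21 had the smallest p of the 10 genes in both lines. In OVCAR3 RAD21 was at 881, 1116 and 1081 CPM in control pools L, M and R and at 1418, 1515 and 1842 CPM in HCQ-evolved pools. In CCL218 it was at 942, 1236 and 1283 CPM in control pools and at 1465, 1617 and 1524 CPM in HCQ-evolved pools. Every HCQ-evolved pool thus lay above every control pool of its line. The log2 fold change was 0.61 in OVCAR3 (SE 0.22, adjusted p = 0.208) and 0.39 in CCL218 (SE 0.15, adjusted p = 0.166), and 0.50 (adjusted p = 0.0579) and 0.26 (adjusted p = 0.069) with the length and GC trend removed. RAD21 passed in OVCAR3 with DESeq2's Wald test (adjusted p = 0.0387, 1105 genes passing in all) and in a fit of all 12 libraries (adjusted p = 0.0468, 1165 genes), and the difference of its change between lines was -0.20 (SE 0.24, adjusted p = 0.999). RAD21 overlaps UTP23 and RAD21-AS1 on the opposite strand, and whether reads were counted by strand is not given in the sources used here.

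SMC1A and SMC3, the hinge-joined arms of the ring, had wider errors. SMC3 was at 86.8, 126 and 109.9 CPM in control OVCAR3 pools and at 130, 133 and 202 CPM in HCQ-evolved ones, a log2 fold change of 0.51 (SE 0.25, adjusted p = 0.368). The groups were apart, though control M at 126 CPM and HCQ-evolved L at 130 CPM lay close, and without HCQ-evolved pool R the change was 0.26. SMC1A was at 107, 187 and 115 CPM in control OVCAR3 pools and at 158, 148 and 379 CPM in HCQ-evolved ones, so the groups overlapped and pool R set the mean (log2 fold change 0.73, SE 0.42, adjusted p = 0.445). Without that pool the SMC1A change was 0.13. With the length and GC trend removed the OVCAR3 changes were 0.64 for SMC1A (adjusted p = 0.075) and 0.29 for SMC3 (adjusted p = 0.179). The SMC1A pools were then apart, at 7.10, 7.41 and 7.24 log2 CPM in control and 7.72, 7.70 and 8.25 in HCQ-evolved OVCAR3. In CCL218 the trend-removed changes were 0.17 for SMC1A and -0.05 for SMC3. In CCL218 the pools of both genes overlapped, with log2 fold changes of 0.22 for SMC1A and 0.15 for SMC3, and of -0.08 and -0.01 without control pool L.

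Some transcripts of dividing cells also rose. Summed over 7 proliferation genes (MKI67, TOP2A, CCNB1, CCNA2, CDK1, PCNA and MCM2), control OVCAR3 pools held 832 to 1069 CPM and HCQ-evolved ones 1444 to 2463 CPM, while control CCL218 pools held 942 to 1385 CPM and HCQ-evolved ones 1377 to 1656 CPM, which overlap. Of the 7 genes 2 passed in OVCAR3 (CDK1 and CCNB1, against 1.86% of all genes) and 1 in CCL218 (CDK1, against 6.46%). CDK1, the kinase that drives entry into mitosis, rose in both lines (log2 fold change 1.29, adjusted p = 0.0318 in OVCAR3; 0.63, adjusted p = 0.0251 in CCL218). In CCL218 the log2 fold changes of MKI67 (0.12), MCM2 (0.09) and PCNA (-0.23) did not pass. The part of proliferation in the cohesin values was not tested.

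**Figure D3:**
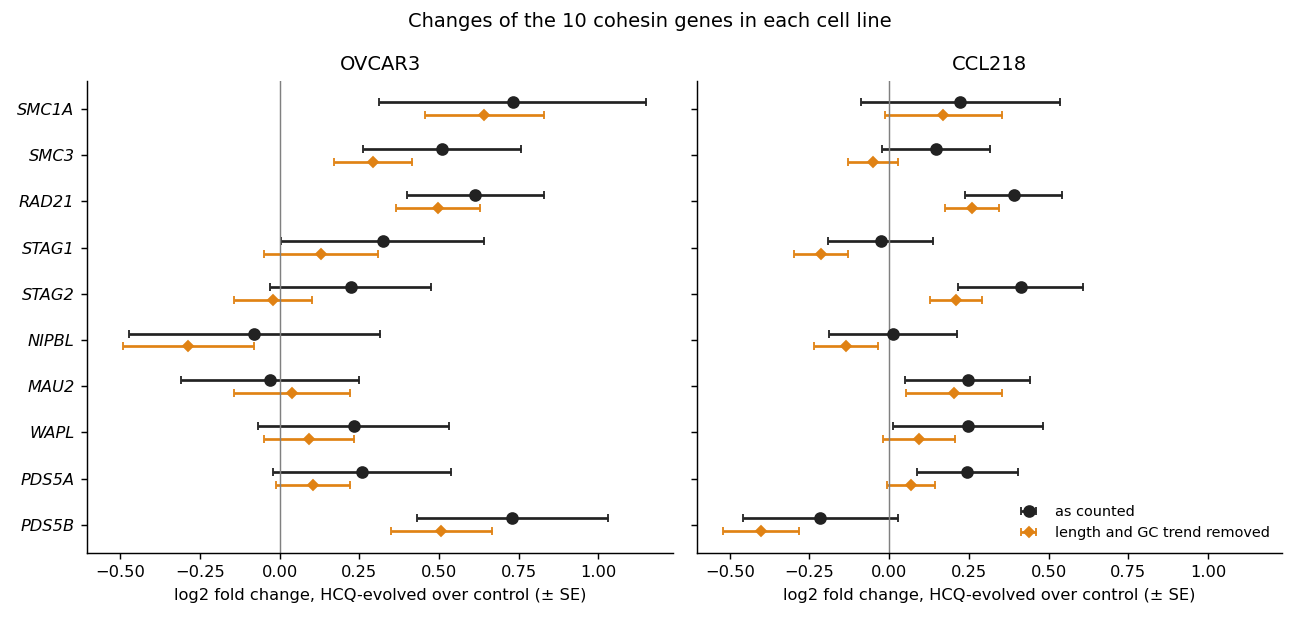
Log2 fold change of each cohesin gene, HCQ-evolved over control (horizontal axis, ± SE), in OVCAR3 and CCL218, as counted (circles) and with the length and GC trend removed (diamonds). PDS5B lies at 0.73 in OVCAR3 and -0.22 in CCL218, and 19 of 20 values are lower with the trend removed.

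STAG1 and STAG2 are alternative subunits: a ring carries one or the other, and they differ in chromatin residence and in their contacts with CTCF. The windows printed for them are the 250 bases before the RefSeq start nearest to the canonical GENCODE start, at or before it (GRCh38.p14, given 5′ to 3′ on the gene's strand), shown because the ratio of this pair is compared between lines. Capitals mark, on either strand, the CCAAT box, the GC box word GGGCGG, the cell cycle homology word TTTGAA, and the E2F-type words TTTCCCGC, TTTCGCGC, TTTGCCGC and TTTGGCGC. The STAG2 window is chrX:123961062-123961311, plus strand, before a RefSeq start that lies 394 bases upstream of the canonical start, and the STAG1 window is chr3:136752379-136752628, minus strand.

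STAG2: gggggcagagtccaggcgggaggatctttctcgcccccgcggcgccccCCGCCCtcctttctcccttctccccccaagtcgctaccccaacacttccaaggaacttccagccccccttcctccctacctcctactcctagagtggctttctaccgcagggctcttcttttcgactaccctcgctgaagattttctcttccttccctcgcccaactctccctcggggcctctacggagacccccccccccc
STAG1: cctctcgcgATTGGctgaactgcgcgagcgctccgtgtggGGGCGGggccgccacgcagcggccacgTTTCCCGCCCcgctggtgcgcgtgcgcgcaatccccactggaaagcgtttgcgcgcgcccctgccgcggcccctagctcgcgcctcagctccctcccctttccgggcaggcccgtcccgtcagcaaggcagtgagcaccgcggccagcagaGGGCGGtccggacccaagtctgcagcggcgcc

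The STAG1 window holds an E2F-type word 183 bases before the start, where it overlaps a GGGCGG on the other strand, and the STAG2 window holds none. Such a word was in 3 of 9 cohesin windows (SMC1A, STAG1 and NIPBL) and in 2.79% of all 35116 windows of the same length. No window was taken for RAD21. GGGCGG was in all 9, against 42.6% of windows, CCAAT in 4 of 9 (against 32%) and TTTGAA in SMC3 only (13.3%). The cohesin windows held 52.8% (SMC3) to 78% (PDS5B) G and C, and the shares over all windows were not matched for GC content. These are letter matches and not sites.

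STAG2 in OVCAR3 was at 143, 205 and 162 CPM in control pools and at 169, 168 and 265 CPM in HCQ-evolved pools, and the groups overlapped (log2 fold change 0.22, 95% interval -0.36 to 0.81, adjusted p = 0.715). In CCL218 it was at 148, 243 and 229 CPM in control pools and at 246, 299 and 292 CPM in HCQ-evolved pools. All 3 HCQ-evolved CCL218 pools were above the controls, the closest pair being 243 and 246 CPM. The log2 fold change there was 0.41 (SE 0.20, adjusted p = 0.238), 0.21 with the length and GC trend removed (adjusted p = 0.112) and 0.44 with plate position as a block (adjusted p = 0.0711). Without control pool L, the lowest, it was 0.22 (adjusted p = 0.134). STAG1 was at 51.4, 67.3 and 49.9 CPM in control OVCAR3 and 53.9, 53.1 and 106 CPM after evolution, and at 50.7, 70.0 and 67.8 CPM in control CCL218 and 53.9, 64.3 and 69.8 CPM after evolution. Its changes of 0.32 and -0.03 were within the spread of pools. With the length and GC trend removed STAG1 changed by 0.13 in OVCAR3 (adjusted p = 0.687) and by -0.215 in CCL218 (adjusted p = 0.115). The trend-removed CCL218 pools of STAG1 were apart, at 5.863 to 5.916 log2 CPM in control and 5.63 to 5.799 after evolution. SH2D1A and TEX13D overlap STAG2 on the same strand, TENM1 overlaps it on the other, and PCCB overlaps STAG1 on the other strand.

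A ratio of 2 genes within a library does not depend on library scaling. The STAG2 to STAG1 ratio, per kb, was 2.86, 3.41 and 3.31 in control CCL218 pools and 4.48, 4.56 and 4.11 in HCQ-evolved ones. All evolved pools were higher, by 0.46 on the log2 scale (1.67 ± 0.14 to 2.13 ± 0.08, n = 3, exact two-sided permutation p = 0.1, the smallest that 3 against 3 allow, adjusted p = 0.267 over 8 ratio tests). In OVCAR3 the ratio was 2.74, 2.98 and 3.19 in control pools and 3.08, 3.10 and 2.45 in HCQ-evolved ones, a log2 difference of -0.05 (exact p = 0.8). With each pool left out, the OVCAR3 difference ran from -0.11 to 0.06. The change in CCL218 exceeded that in OVCAR3 by 0.51 (exact permutation of treatment within lines, 400 relabelings, p = 0.04, adjusted p = 0.08 over 4 ratios), a test chosen after the values were seen. That difference did not pass the adjusted threshold and ran from 0.40 to 0.57 with each pool left out (p from 0.03 to 0.08).

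PDS5A and PDS5B are alternative HEAT-repeat proteins that sit on the ring and serve both release with WAPL and protection with sororin. Their upstream windows are shown because the change of their ratio differed between lines. The PDS5B window is chr13:32586202-32586451, plus strand, and the PDS5A window is chr4:39977912-39978161, minus strand, with the same words in capitals.

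PDS5B: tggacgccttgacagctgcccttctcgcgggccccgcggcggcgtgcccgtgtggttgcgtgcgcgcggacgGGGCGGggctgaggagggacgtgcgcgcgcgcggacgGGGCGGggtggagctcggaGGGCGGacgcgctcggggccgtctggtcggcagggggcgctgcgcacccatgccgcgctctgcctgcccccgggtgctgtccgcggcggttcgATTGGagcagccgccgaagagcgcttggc
PDS5A: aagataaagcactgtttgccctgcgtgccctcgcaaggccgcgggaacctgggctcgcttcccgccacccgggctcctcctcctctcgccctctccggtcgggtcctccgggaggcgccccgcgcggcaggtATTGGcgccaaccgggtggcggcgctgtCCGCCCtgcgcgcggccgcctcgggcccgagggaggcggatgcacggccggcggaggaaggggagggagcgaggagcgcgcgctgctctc

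Both windows hold 1 CCAAT on the minus strand, 29 bases before the start in PDS5B and 118 bases before it in PDS5A. GGGCGG occurs 3 times in the PDS5B window and 1 time in the PDS5A window, and neither holds an E2F-type word.

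PDS5B was at 60.5, 116 and 105 CPM in control OVCAR3 pools and at 138, 129.8 and 203 CPM in HCQ-evolved pools, which were all higher. The log2 fold change was 0.73 (SE 0.30, 95% interval 0.03 to 1.43, adjusted p = 0.283). In CCL218 it was at 71.9, 139 and 134 CPM in control pools and at 88.7, 103 and 109.7 CPM in HCQ-evolved pools, a log2 fold change of -0.22 (SE 0.24, adjusted p = 0.599). The CCL218 groups overlapped through control pool L alone, and without that pool PDS5B was lower by a log2 fold change of -0.46 (adjusted p = 0.00875, in a fit where 3047 of 12102 genes passed). PDS5A was at 128, 186 and 137 CPM in control OVCAR3 and 147, 147 and 252 CPM after evolution, and at 154, 217 and 203 CPM in control CCL218 and 202, 237 and 252 CPM after evolution. Its log2 fold changes were 0.26 and 0.24, and its pools overlapped in both lines. Without HCQ-evolved pool R the OVCAR3 changes were 0.48 for PDS5B and -0.07 for PDS5A. Without control pool L the change of PDS5A in CCL218 was 0.11. With the length and GC trend removed PDS5B changed by 0.507 in OVCAR3 (adjusted p = 0.0928) and by -0.401 in CCL218 (adjusted p = 0.0532). Its trend-removed CCL218 pools were apart, at 6.47 to 6.919 log2 CPM in control and 6.356 to 6.439 after evolution. PDS5A changed by 0.105 and 0.068 with the trend removed.

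The PDS5B to PDS5A ratio moved up in OVCAR3 pools and down in CCL218 pools. Per kb, the PDS5B to PDS5A ratio was 0.451, 0.593 and 0.731 in control OVCAR3 pools and 0.900, 0.841 and 0.770 in HCQ-evolved ones. In CCL218 it was 0.446, 0.612 and 0.631 in control pools and 0.418, 0.415 and 0.415 in HCQ-evolved ones. Control pools of both lines covered alike ranges, the evolved OVCAR3 pools lay above all controls, and the evolved CCL218 pools lay below all of them. On the log2 scale the change was 0.53 in OVCAR3 (-0.79 ± 0.35 to -0.26 ± 0.11) and -0.42 in CCL218 (-0.85 ± 0.28 to -1.27 ± 0.01), each at an exact permutation p = 0.1 (n = 3 against 3, adjusted p = 0.267). The difference between lines was -0.94 (exact permutation of treatment within lines, p = 0.005, the smallest that 400 relabelings allow, adjusted p = 0.02 over 4 ratios), again tested after the values were seen. Pools fully apart in opposite directions give this smallest p by themselves, so it adds no support beyond that pattern. By the same exact test the difference was -0.88 with the length and GC trend removed (p = 0.005) and ran from -1.11 to -0.76 with each pool left out (p from 0.005 to 0.025).

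**Figure D4:**
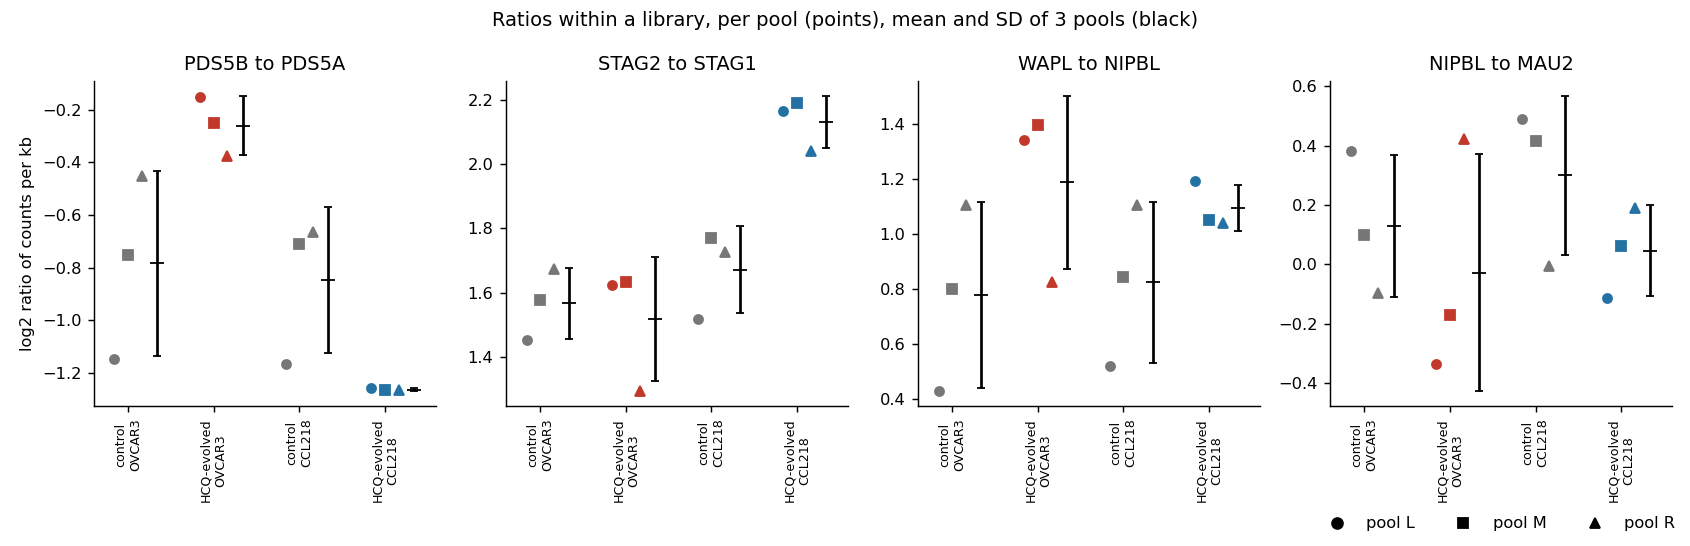
Log2 ratio of counts per kb for 4 pairs of cohesin genes (vertical axes, each with its own range) in the 4 groups, with a symbol for each pool and the mean and SD of 3 pools in black. The mean log2 PDS5B to PDS5A ratio is -0.26 in evolved OVCAR3 pools and -1.27 in evolved CCL218 pools, and the mean log2 STAG2 to STAG1 ratio is 2.13 in HCQ-evolved CCL218 against 1.52 to 1.67 elsewhere.

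In the interaction fit of all 12 libraries, which tests the difference between lines for every gene, 0 of 10 cohesin genes passed, where 0.872% of 12613 genes did. At an unadjusted p under 0.05 there was 1 of 10, against 9.11% of all genes, and it was PDS5B (-0.93, SE 0.40, edgeR adjusted p = 0.509). With the length and GC trend removed PDS5B was at -0.89 and passed (SE 0.19, adjusted p = 0.031, 438 genes or 3.47% passing in all), and with plate position as a block in addition it did not (-0.89, adjusted p = 0.0988). STAG2 differed by 0.21 (95% interval -0.50 to 0.92, adjusted p = 0.999).

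Genes around PDS5B had medians of the same signs. PDS5B lies on chromosome 13 from 32586452 to 32778019 (GENCODE 44 on hg38). Of the 30 other genes tested in OVCAR3 with a start within 5 Mb of its start, 21 had a log2 fold change above 0 (against 51.6% of all genes), with a median of 0.34, and in CCL218 5 of 27 did (against 48.3%), with a median of -0.51. From 5 to 20 Mb away the medians were 0.16 in OVCAR3 and -0.14 in CCL218. Over the whole chromosome 143 of 219 genes were above 0 in OVCAR3 (median 0.15) and 66 of 216 in CCL218 (median -0.18). In CCL218 6 of the 27 near genes passed the test (against 6.46% of all genes), 5 of them lower (against 2.64%). In OVCAR3 2 of the 30 near genes passed (against 1.86% of all genes), 1 higher and 1 lower. From single-cell RNA of the evolved cells, the paper inferred that chromosome 13 was positively selected in OVCAR3 and selected for losses in CCL218. The part of the chromosome in the PDS5B values was not tested here.

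**Figure D5:**
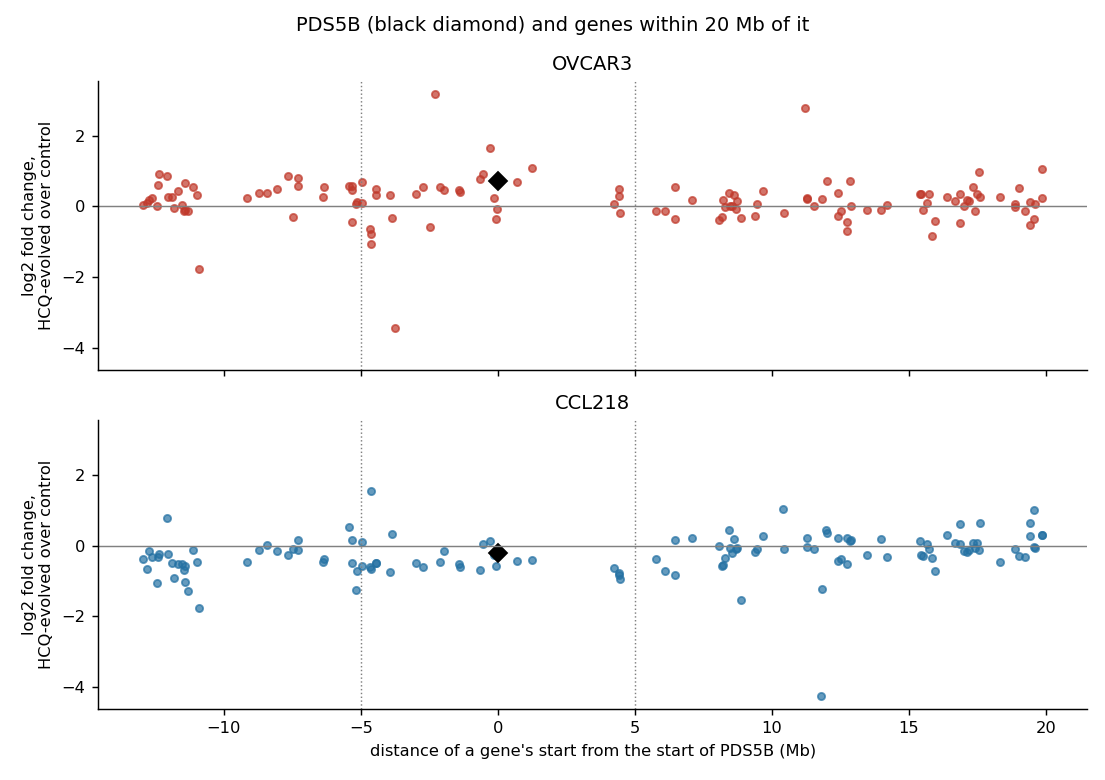
Log2 fold change, HCQ-evolved over control (vertical axis), of genes with a start within 20 Mb of the start of PDS5B (horizontal axis, distance in Mb), with PDS5B as a black diamond and dotted lines at 5 Mb. Between the dotted lines 21 of 30 genes lie above 0 in OVCAR3 and 22 of 27 lie below 0 in CCL218.

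No change of the loaders or of the release factor passed the test, and their pools overlapped in both lines. NIPBL, whose loss of function underlies Cornelia de Lange syndrome, ranged from 60.1 to 101 CPM in control OVCAR3 and from 50.8 to 122 CPM after evolution, where pools L and M lay at 51.4 and 50.8 CPM and pool R alone at 122 CPM. Its log2 fold change was -0.08 (95% interval -1 to 0.84), and -0.65 without pool R (adjusted p = 0.186). In CCL218 NIPBL changed by 0.01 (-0.46 to 0.48). MAU2, its adaptor, was at 26.0 to 43.9 CPM and 26.5 to 42.2 CPM in OVCAR3 and at 27.7 to 45.1 CPM and 42.8 to 49.2 CPM in CCL218, with log2 fold changes of -0.03 and 0.25, and 0.05 in CCL218 without control pool L. WAPL, the release factor, had log2 fold changes of 0.23 (-0.47 to 0.93) and 0.25 (-0.31 to 0.80), and of -0.06 without HCQ-evolved OVCAR3 pool R and 0.01 without control CCL218 pool L. The change of the log2 WAPL to NIPBL ratio was 0.41 in OVCAR3 (exact permutation p = 0.2, n = 3 against 3) and 0.27 in CCL218 (exact p = 0.3). That of the NIPBL to MAU2 ratio was -0.16 (exact p = 0.6) and -0.25 (exact p = 0.3), and pools overlapped for both ratios in both lines.

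The genes whose level followed STAG2 most closely over the 12 libraries were SEL1L, CDYL2, TANC1, CNOT6L and SORL1, with Pearson's r of log2 CPM from 0.988 to 0.99. Their transcripts run from 7.5 to 10.86 kb, and with the length and GC trend removed r was 0.77 to 0.91. The part of transcript length in these correlations was not tested. Of the other cohesin genes WAPL (0.97) and PDS5A (0.97) followed STAG2 most closely and PDS5B least (0.47). With the trend removed r with STAG2 was 0.80 for MAU2, 0.73 for WAPL, -0.25 for STAG1 and -0.44 for PDS5B. Over the 45 pairs of cohesin genes the median r was 0.77, and 0.35 with the trend removed. These values describe 12 libraries that share 4 groups.

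In OVCAR3 genes that establish cohesion had values on both sides of those of the ring, and genes that protect or cleave cohesin lay above them. The 10 tested genes of the list for cohesion establishment ranged from -0.44 (HDAC8, which deacetylates SMC3) to 1.32 (ESCO2, which acetylates it) with a median of 0.53. Of these 10 genes 1 passed in OVCAR3 (against 1.86% of all genes), CDCA5, or sororin, which shields the ring from WAPL. CDCA5 was at 59.4 ± 16 CPM in control and 140 ± 5.02 CPM in HCQ-evolved pools (log2 fold change 1.22, SE 0.23, adjusted p = 0.0484). With the length and GC trend removed 7 of the 10 passed in OVCAR3, where 8.53% of all genes did. In CCL218 0 of 10 passed, CDCA5 changed by 0.18 (adjusted p = 0.678), and the smallest p was that of TIPIN, of the fork protection complex (-0.33, adjusted p = 0.237). The difference of the CDCA5 change between lines was -1.02 (SE 0.36, adjusted p = 0.314) and did not pass. All 8 genes that protect or cleave cohesin in mitosis had a log2 fold change above 0 in OVCAR3 (0.79 to 1.40, median 0.94), 8 of 8 at an unadjusted p under 0.05 (against 16.2% of all genes) and 0 at an adjusted one. With the trend removed 6 of the 8 passed in OVCAR3, where 8.53% of all genes did, among them PTTG1 (securin, 0.93, adjusted p = 0.00778), AURKB (1.05, adjusted p = 0.00766) and BUB1 (1.31, adjusted p = 0.0107), and 2 in CCL218, where 19.8% did. The smallest p was that of PLK1, the kinase that strips cohesin from arms in prophase (0.92, adjusted p = 0.0517). In CCL218 their median was 0.39, 7 of 8 were above 0 and 0 passed, led by SGO2, a shugoshin that guards centromeric cohesin (0.67, adjusted p = 0.0966).

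Other partners and relatives gave 1 call, SMC1B in OVCAR3. CTCF, which halts cohesin at loop boundaries, changed by 0.15 in OVCAR3 (adjusted p = 0.821) and 0.07 in CCL218 (adjusted p = 0.827), and 0 of 3 tested boundary genes passed in either line. In CCL218 the smallest p of that list was that of MAZ (-0.13, adjusted p = 0.581). Of 7 tested genes of the SMC5/6 complex, a relative that acts in DNA repair, 0 passed in either line, with log2 fold changes from -0.10 to 0.74 in OVCAR3. SLF1 had the smallest p in both lines (0.74, adjusted p = 0.174 in OVCAR3; 0.54, adjusted p = 0.152 in CCL218). Of the 4 meiotic cohesin genes 2 were tested in OVCAR3, and SMC1B fell from 1.70 ± 0.17 to 0.17 ± 0.15 CPM (log2 fold change -3.31, adjusted p = 0.0371). SMC1B passed the filter only through its control pools, at 1.59 to 1.90 CPM, and the HCQ-evolved pools held 3 to 20 counts, so it was admitted by the group in which it was high. SMC1B was at 0.21 ± 0.02 and 0.20 ± 0.03 CPM in CCL218, below the filter. The only one tested in CCL218 was REC8, the meiotic kleisin (-0.57, adjusted p = 0.511).

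Condensin, the other SMC ring, which compacts mitotic chromosomes, gave larger values than cohesin in OVCAR3. Every evolved pool lay above every control pool for 8 of 8 condensin genes there and for 3 of 10 cohesin genes (14.5% of all genes), and the median log2 fold change was 1.04 against 0.29. At an unadjusted p under 0.05 there were 7 of 8 condensin genes and 2 of 10 cohesin genes (against 16.2% of all genes), and at an adjusted p 0 of either. With the length and GC trend removed 6 of 8 condensin genes and 0 of 10 cohesin genes passed, where 8.53% of all genes did. NCAPG2 of condensin II had the smallest p (1.42, SE 0.28, adjusted p = 0.0517), and SMC4, the condensin partner of SMC2, went from 124 ± 15.6 to 253 ± 73.3 CPM (1.01, adjusted p = 0.0901). In CCL218 the medians were 0.29 for condensin and 0.23 for cohesin. Every evolved pool lay above every control pool there for 3 of 8 and 2 of 10 genes (against 19.8% of all genes). The smallest condensin p in CCL218 was that of NCAPG (0.45, adjusted p = 0.174). In the interaction the 8 condensin genes ranged from -1.08 to -0.22 with 0 passing, and the 10 cohesin genes from -0.93 to 0.30. With the length and GC trend removed 4 of 8 condensin genes passed there and 1 of 10 cohesin genes, PDS5B, where 3.47% of all genes did. So did 3 of 10 tested establishment genes, 1 of 8 protection and cleavage genes and 2 of 7 proliferation genes. The difference between condensin and cohesin genes was not tested.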

How the data were processed

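RNA of 12 pools was counted per gene. The authors deposited raw counts per gene symbol, made from paired-end reads aligned to hg38 with STAR, with duplicates removed by RmDup and counting by featureCounts. Tool versions, annotation and strand setting are not given in the sources used here. Of entries of 1 to 4 counts, 78.9% were even. Whether both mates of a pair were counted is not given in the sources used here, so whether the values are reads or fragments is not known. The 12 columns matched 12 labels, with 0 left over. Libraries held 31147822 to 59965861 counts, and no 2 were identical (0 pairs).

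Counts were scaled by TMM. Each line was fitted alone, for genes at 1 CPM or more before TMM scaling in 3 or more libraries, with edgeR 4.0.16 in R 4.3.3 (quasi-likelihood fit, robust, legacy mode) and Benjamini-Hochberg adjustment over all genes tested, at 0.05. The interaction used all 12 libraries. Levels in the text are CPM with TMM over 12 libraries. Intervals of log2 fold changes are 95% intervals from the t distribution of the fit. Ratios of 2 genes were taken within each library and compared by exact permutation. Alternatives were DESeq2 1.42.0, limma 3.58.1 (voom), other scaling, no filter, 1 fit of all libraries, each pool left out, plate position as a block, and removal of a spline trend (5 degrees of freedom) with the length and GC content of the canonical transcript (GENCODE 44, 25763 of 28278 symbols matched, 91.1%, all 87 listed genes among them). The scripts were tested on simulated data.

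After group means were removed, control and HCQ-evolved pools of the same plate position correlated across genes at 0.48 (L), 0.20 (M) and 0.17 (R) in CCL218. There control pool M correlated best with HCQ-evolved pool R. In OVCAR3, with the same 3 plate positions, the correlations were 0.39, -0.65 and -0.47. Control pool M correlated best with HCQ-evolved pool R there, and control pool R with HCQ-evolved pool M. The reported fits and ratio tests carry no block in either line, and the blocked fit is an alternative.

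The 10 genes, the 11 other gene lists and the tests were chosen with earlier results of these data known. Named genes are all 10 members, the gene with the smallest p of each list in each line, the 5 genes correlated best with STAG2, condensin genes for comparison and marker genes; SMC4, CDCA5 in CCL218, HDAC8, ESCO2, PTTG1, AURKB, BUB1, the proliferation genes other than CDK1, and NIPBL pools singled out in the text were added after values were seen. Promoter windows came from RefSeq (GRCh38.p14) and were taken for 9 of the 10 genes. Windows on chromosome 8 were not taken for the cohesin genes, so RAD21 has none. For STAG2 the nearest RefSeq start lies downstream of the canonical start and was not used. Protein sequences, exomes and single-cell data were not used here.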

Additional observations from a re-analysis of the deposited data

Results flagged for a closer look

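The change of the PDS5B to PDS5A ratio, HCQ-evolved minus control, differed between the lines by -0.943 on the log2 scale (0.53 in OVCAR3 and -0.42 in CCL218; exact permutation of treatment within lines, p = 0.005, adjusted p = 0.02 over 4 ratios, chosen after the values were seen). All 3 evolved pools were above the controls in OVCAR3 and all 3 below them in CCL218, a pattern that by itself fixes p at 0.005. Genes near PDS5B on chromosome 13 had medians of the same signs.

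The change of the STAG2 to STAG1 ratio differed between the lines by 0.51 (-0.05 in OVCAR3 and 0.46 in CCL218; exact permutation p = 0.04, adjusted p = 0.08), which did not pass after adjustment. Groups of 3 pools were too small to look for single outlying pools by a fixed limit.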

How the results depend on the processing

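No cohesin gene was called in the reported fits, and the count changed in 4 alternatives: 1 in OVCAR3 with DESeq2's Wald test (RAD21, log2 fold change 0.61, adjusted p = 0.0387) and 1 with all 12 libraries in 1 fit (RAD21, 0.60, adjusted p = 0.0468), 1 in the interaction with the length and GC trend removed (PDS5B, -0.89, adjusted p = 0.031), and 1 in CCL218 without control pool L (PDS5B, -0.46, adjusted p = 0.00875). With single pools left out the counts of called cohesin genes were 0 to 0 in OVCAR3, 0 to 1 in CCL218 and 0 to 0 in the interaction. The cause of these changes was not tested. Plate position as a block gave 0 calls in each comparison and changed no call among the cohesin genes. Over all genes it gave 81 in place of 227 in OVCAR3, 1744 in place of 791 in CCL218, and 35 in place of 110 in the interaction. Paired by position, the ratio differences were the same and could not reach a p under 0.25. Over all genes the calls also moved by more than 1.5 times with DESeq2 (1105, 2172 and 463), without a filter (549 in OVCAR3), in 1 fit of all libraries (1165 in OVCAR3), and with the trend removed (1041, 2418 and 438; with the block 451 and 2172 in the lines). With single pools left out they ran from 3 to 557 in OVCAR3, from 102 to 3047 in CCL218 and from 38 to 212 in the interaction.

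Changes near 0 turned sign. In OVCAR3 these were MAU2 (-0.03) without a filter (0.00759), with the trend removed (0.0386) and with the trend removed and the block (0.0493), and STAG2 (0.22) with the trend removed (-0.0216, and -0.0266 with the block). In CCL218 they were STAG1 (-0.03) without a filter (0.0042), SMC3 (0.15; -0.0502 with the trend removed, with and without the block) and NIPBL (0.01; -0.135 with the trend removed and -0.132 with the block). With single pools left out, sign turned in OVCAR3 for NIPBL (-0.646 to 0.15), MAU2 (-0.263 to 0.22), STAG1 (-0.105 to 0.505), STAG2 (-0.0464 to 0.376), WAPL (-0.0611 to 0.473), PDS5A (-0.0669 to 0.438) and the median of the 10 genes (-0.0537 to 0.472), and in CCL218 for SMC1A (-0.0792 to 0.463), SMC3 (-0.014 to 0.239), NIPBL (-0.113 to 0.216) and STAG1 (-0.156 to 0.0708). The STAG2 to STAG1 change in OVCAR3 ran from -0.108 to 0.0608. Between lines, the differences ran from 0.399 to 0.568 for STAG2 to STAG1 (exact p from 0.03 to 0.08), from -0.252 to 0.127 for NIPBL to MAU2 and from -0.321 to 0.0354 for WAPL to NIPBL. Standard errors of single cohesin genes ran from 0.15 to 0.42 on the log2 scale, which limits the size of change that 3 pools a group could show.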
